A study of Homo sapiens with 10 samples.

Results

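Chromatin immunoprecipitation and sequencing (ChIP-seq) of H4R3me2s in BDNF+Dox cells was compared with that in Naive cells, with 3 libraries in each group, so that 6 of the 10 samples of the series entered. The libraries were chosen by their treatment labels, and the merged BDNF+Dox libraries called over the merged Naive libraries were described beside them. All cells were of the neuroblastoma line SH-SY5Y, which retinoic acid can turn neuron-like, and were grown with zeocin. Naive cells had no treatment, and the growth medium of the line held 10% serum. BDNF+Dox cells were first given 10 µM retinoic acid for 6 days in medium with 3% serum and then 50 ng/ml BDNF for 4 days without serum. Doxycycline at 1 µg/ml was given for 3 days and induced α-synuclein through a Tet-on construct, and the labels do not name the cells or clone that carry it. The comparison therefore changes differentiation, serum, doxycycline and α-synuclein together, and their parts cannot be told apart in these 6 libraries. The labels do not say whether replicates were separate cultures, so p-values here reflect the spread among 6 libraries, and that spread could be purely technical. Cell identity by expression could not be checked, since the files hold peaks and no RNA.

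H4R3me2s is histone H4 dimethylated symmetrically at arginine 3. It is placed chiefly by the methyltransferase PRMT5, and the mark is best known from silenced genes. BAF complexes move nucleosomes and can be found with PRMT5, and the title of the series names an interaction of α-synuclein, a presynaptic protein, with both. Retinoic acid acts through nuclear receptors on neuronal genes, and BDNF acts through the receptor TrkB to promote neurite growth.

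The sequences below come from promoter windows. The first and second are chosen from several windows that met a merged peak. The third lies near the region found in all BDNF+Dox libraries but outside it. They come from RefSeq on GRCh38.p14 and run 5′ to 3′ on the gene's own strand. The first is the window of LOC105375242, a long noncoding RNA gene on the minus strand within the coding gene SUGCT, at chr7:40900257-40900556. It carried the strongest merged peak of any window and is shown with its first 50 transcribed bases. The second is the 250 bases before the ART3 start on the plus strand, at chr4:76053866-76054115, whose merged peak had a q-value of 1 but also met a peak of 1 BDNF+Dox library. In both, capitals mark the bases under the merged peak. The third is the 250 bases before an internal start of NRCAM on the minus strand, at chr7:108328527-108328776, the listed start nearest to the region found in all BDNF+Dox libraries, and capitals mark its single E-box match (CANNTG).
LOC105375242: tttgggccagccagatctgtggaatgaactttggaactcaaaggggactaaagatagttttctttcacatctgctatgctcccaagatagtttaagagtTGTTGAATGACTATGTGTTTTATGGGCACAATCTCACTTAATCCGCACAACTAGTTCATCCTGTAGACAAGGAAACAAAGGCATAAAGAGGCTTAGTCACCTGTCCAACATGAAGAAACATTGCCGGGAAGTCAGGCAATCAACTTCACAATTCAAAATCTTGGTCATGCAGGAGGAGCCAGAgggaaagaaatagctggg
ART3: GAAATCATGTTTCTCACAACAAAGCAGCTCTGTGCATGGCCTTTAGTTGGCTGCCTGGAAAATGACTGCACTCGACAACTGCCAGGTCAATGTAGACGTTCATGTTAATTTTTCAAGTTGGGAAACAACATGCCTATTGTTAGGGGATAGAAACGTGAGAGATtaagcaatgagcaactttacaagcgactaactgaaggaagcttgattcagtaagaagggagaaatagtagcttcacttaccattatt
NRCAM: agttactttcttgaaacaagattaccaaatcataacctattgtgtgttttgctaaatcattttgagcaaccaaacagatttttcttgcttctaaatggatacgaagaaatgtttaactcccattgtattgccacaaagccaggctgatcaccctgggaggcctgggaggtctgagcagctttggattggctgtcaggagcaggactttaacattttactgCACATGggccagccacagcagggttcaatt

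Peaks were called by the authors in each library over a single Input library, as stretches in which extended fragments piled up beyond the local background at p of 0.01. Libraries kept between 17813382 and 18928589 reads after removal of duplicates, and the Input kept 17074000. On chromosomes 1 to 22 and X the BDNF+Dox libraries held 10807, 6908 and 6304 peaks and the Naive libraries 12135, 5839 and 7848. These numbers overlapped between the groups (ratio of geometric means 0.946, exact two-sided permutation p = 0.8, adjusted p = 1 over 5 measures). Peaks at a q-value of 0.05 or less were 7, 22 and 20 in BDNF+Dox and 50, 19 and 32 in Naive libraries, and this difference was also within the spread (exact two-sided permutation p = 0.3, adjusted p = 0.5). Peaks were low. The summit height, put back to unscaled fragments, was whole within 0.05 for 100% of peaks, and the median peak stood on 7 overlapping fragments in every library, over an Input background of 1.06 to 1.14. Between 0.453% and 0.984% of the peaks of a BDNF+Dox library overlapped a peak of another BDNF+Dox library. For Naive pairs this was 0.445% to 1.11%, and for pairs across the groups 0.519% to 1.1%. Replicates thus shared few peaks, and the ranges within and across groups overlapped.

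The BDNF+Dox and Naive libraries separated in where peaks fell. Of their peaks, 42.1%, 43.4% and 45.3% in the BDNF+Dox libraries lay in a protein-coding gene or within 2 kb of one. In the Naive libraries the share was 37.5%, 39% and 39.9%. All 3 BDNF+Dox libraries were above all 3 Naive libraries, at 43.6% ± 1.61 (SD, n = 3) against 38.8% ± 1.19, a difference of 4.82 percentage points. The exact two-sided permutation p was 0.1, the smallest that 3 libraries against 3 can give, and 0.25 adjusted over the 5 measures, so the difference did not pass the threshold. The share that lay in no gene moved the other way, at 41.8% ± 1.57 (SD, n = 3) in BDNF+Dox and 46.4% ± 1.2 in Naive libraries, without overlap. The share in noncoding genes alone overlapped, at 14.6% ± 0.0669 (SD, n = 3) and 14.8% ± 0.555. These shares divide all peaks of a library, so the lower share outside genes restates the higher share in coding genes. The share for peaks spread evenly over the genome was not computed. The values therefore compare the groups and do not show whether peaks of either group favoured or avoided genes.

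**Figure D1:**
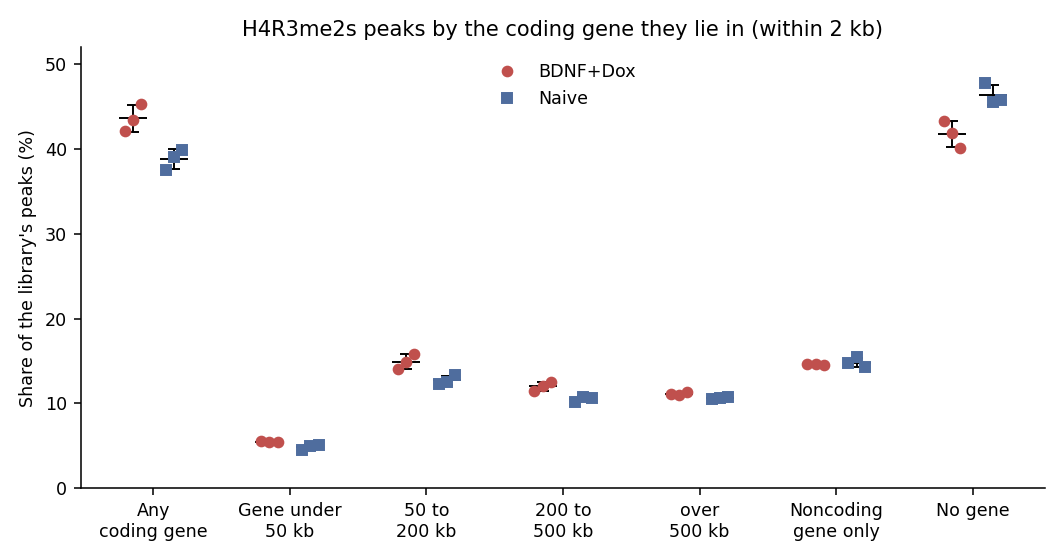
Share of each library's peaks (vertical axis, percent) in protein-coding genes, in genes of 4 length classes by the longest gene hit, in noncoding genes only and in no gene. Circles are the 3 BDNF+Dox and squares the 3 Naive libraries, with mean and SD as bars; BDNF+Dox libraries lie above Naive libraries in every coding class and below them outside genes.

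Genes of every length took part. Genes under 50 kb held 5.49% ± 0.0661 (SD, n = 3) of BDNF+Dox peaks and 4.88% ± 0.348 of Naive peaks. Genes of 50 to 200 kb held 14.9% ± 0.905 against 12.7% ± 0.558, the class with the largest difference, 2.22 points. Genes of 200 to 500 kb held 12% ± 0.557 against 10.5% ± 0.306. Genes over 500 kb, which include many neuronal adhesion and synapse genes, held 11.2% ± 0.188 against 10.7% ± 0.126. In none of the 4 classes did a BDNF+Dox library fall among the Naive libraries. The 4 classes divide the same peaks, so they are parts of 1 difference and were given no test of their own.

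The shift was seen chromosome by chromosome. On 13 of 23 chromosomes (56.5%) the genic share was higher in every BDNF+Dox than in any Naive library, and on 0 was it lower in every one. On the other chromosomes the groups overlapped. The group mean was higher in BDNF+Dox on 22 of 23 chromosomes, the exception being chromosome 13, where it fell by 1.77 points. The chromosomes divide the peaks of the same 6 libraries. These counts therefore describe how the genic difference was spread and add no replicates to it. On chromosome 17 the genic share was 62.1%, 60.8% and 68.3% in BDNF+Dox and 46.5%, 55.3% and 41.4% in Naive libraries, a difference of 16 points. On chromosome 19 it was 55.1%, 54.5% and 60% against 36.8%, 39.2% and 44%, although this chromosome held under 1% of each library's peaks. Chromosome 14 differed by 12 points, chromosome 16 by 10.8 and chromosome 20 by 12.7, each without overlap. With each chromosome given the same weight, an alternative chosen after seeing the data, the genic share was 44.5% ± 1.53 (SD, n = 3) and 38.3% ± 2.01, again without overlap.

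How the peaks themselves were spread over chromosomes differed less. The share of a library's peaks on a chromosome separated the groups on 3 of 23 chromosomes (13%), 3, 10 and 15, each higher in BDNF+Dox. Chromosome 15 held 2.32%, 2.46% and 2.27% of BDNF+Dox peaks and 1.83%, 1.73% and 1.99% of Naive peaks. Chromosome X held 5.76%, 4.53% and 4.35% against 5.74%, 7.52% and 7.24%, which overlap by a single library, and without it the genic difference was 4.78 points.

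Peaks were also nearer to listed gene starts in the BDNF+Dox libraries, though the tested share did not pass the threshold. The share within 2 kb of a start of a coding gene, or of either end where no start is listed, was 1.78%, 1.8% and 1.81% in BDNF+Dox and 1.26%, 1.54% and 1.63% in Naive libraries (1.79% ± 0.0159 against 1.48% ± 0.193, SD, n = 3). The groups did not overlap, the exact two-sided permutation p was 0.1 and the adjusted p 0.25. Without Naive replicate 1, which had the lowest share and the most peaks, the difference was 0.207 points in place of 0.316. Distances were taken to the nearest listed start of a coding gene, with chromosome 8 not analysed here. Starts were listed for 15812 of 19974 coding genes, so a distance is too long where the nearest start is missing. The median distance was 125, 121 and 116 kb in BDNF+Dox libraries and 164, 133 and 138 kb in Naive libraries. Peaks more than 200 kb from any such start made up 38.5%, 38.2% and 37.4% of BDNF+Dox peaks and 45.4%, 40.5% and 41.2% of Naive peaks. H4R3me2s peaks were thus mostly far from listed starts in both groups, and BDNF+Dox libraries had a smaller share of the most remote ones. Peaks close to a coding start also lie in or near a coding gene. These measures therefore depend on the genic share and are no separate support for it. Distances for peaks spread evenly over the genome were not computed.

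**Figure D2:**
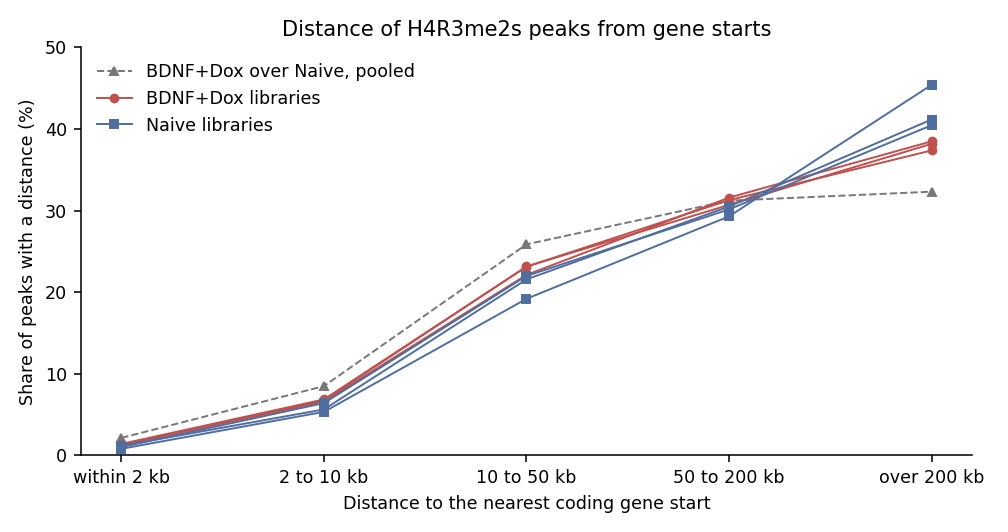
Share of peaks (vertical axis, percent of peaks outside chromosome 8) in 5 classes of distance to the nearest listed coding gene start. Lines are 3 BDNF+Dox libraries, 3 Naive libraries and the merged narrow list of BDNF+Dox over Naive. Over 200 kb all Naive libraries lie above all BDNF+Dox libraries, and the merged list, at 32.3%, lies below both.

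Single genes were compared by the number of peaks in each library. Of 6540 coding genes with a peak in any of the 6 libraries, 67 (1.02%) had more peaks in every BDNF+Dox than in any Naive library and 39 (0.596%) had fewer. Of the 67 genes, 53 had 0 peaks in all Naive libraries and 21 differed by 1 peak on average, so most rest on a handful of peaks. No test was made for single genes, and an exact permutation test of 3 libraries against 3 cannot give a p below 0.1.

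Among the 5 genes with the largest excess in BDNF+Dox, 2 act at synapses. ADGRB3, an adhesion receptor of brain synapses on chromosome 6 (68635282 to 69389506), had 6, 7 and 4 peaks in BDNF+Dox and 2, 1 and 3 in Naive libraries. ERC2, a scaffold of the presynaptic active zone on chromosome 3 (55508311 to 56468467), had 6, 3 and 5 against 2, 1 and 0. ZFHX3, a zinc finger and homeobox transcription factor on chromosome 16, had 5, 4 and 3 against 0, 2 and 1. The membrane protein gene ANO3 had 9, 2 and 2 against 1, 0 and 1, so its mean rests on BDNF+Dox replicate 1. LRMDA, a gene of melanocyte differentiation, had 5, 7 and 5 against 3, 3 and 2.

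In the other direction DLG2, which encodes a postsynaptic scaffold of glutamate receptors and spans 2173 kb of chromosome 11, had 7, 5 and 5 peaks in BDNF+Dox and 10, 8 and 14 in Naive libraries. FRMPD4, another postsynaptic scaffold, on chromosome X, had 1, 1 and 2 against 5, 5 and 3. NKAIN3, which encodes a membrane protein that binds the sodium pump, had 2, 2 and 1 against 6, 6 and 5. FAAH2, a lipid hydrolase on chromosome X, had 1, 1 and 0 against 5, 2 and 4, and the matrix protease gene MMP26 had 1, 0 and 0 against 5, 2 and 3. Synapse genes thus stood in both directions. With the same number of strongest peaks taken from each library, only ANO3 and DLG2 of these 10 genes kept groups that did not overlap. With peaks at a −log10 p of 3 or more, only ZFHX3, FAAH2 and MMP26 did.

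**Figure D3:**
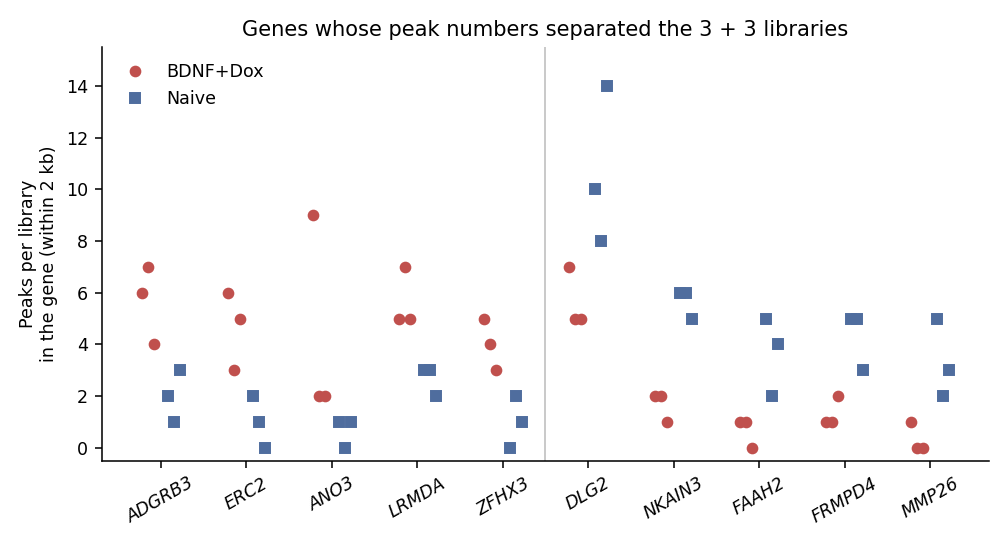
Number of peaks per library (vertical axis) in the 5 genes with the largest excess (left of the line) and the 5 with the largest deficit (right) in BDNF+Dox. Circles are the 3 BDNF+Dox and squares the 3 Naive libraries; the groups do not overlap because the genes were picked for that.

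At the level of single places, overlapping peaks (by at least 1 bp) were joined, which gave 49002 regions. A peak in all 3 BDNF+Dox and no Naive library was found in 2 regions (0.00408%) and the reverse in 2 (0.00408%), and no region had a peak in all 6 libraries. The region inside NRCAM, an adhesion molecule of the L1 family that clusters sodium channels on axons, at chr7:108322116-108322426, stood on 8, 10 and 8 fragments in the BDNF+Dox libraries, over Input backgrounds of 1.73, 1.66 and 1.53. It lies 6.25 kb downstream of the internal NRCAM start shown above and 134 kb downstream of the first listed start. In the merged reads the same place stood on 24 BDNF+Dox fragments over a Naive background of 6.52. The region near OR10D3 on chromosome 11 (124178589 to 124178936) stood on 8, 6 and 6 fragments, and in the merged list its fold was 2.2 at a q-value of 1 over a Naive background of 7.

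Of the Naive regions, 1 on chromosome 7 is 252 kb from VSTM2A and stood on 6, 7 and 7 fragments in the Naive libraries. When peaks had to overlap by 50% of the shorter one, the NRCAM, OR10D3 and VSTM2A regions still met the rule. At a −log10 p of 3 or more the NRCAM and VSTM2A regions remained, and at 5 or more none did. With the same number of strongest peaks taken from each library the NRCAM region no longer met the rule. The OR10D3 region was then the 1 BDNF+Dox region, and the 1 Naive region was another, inside NMNAT2, which with all peaks also had a peak in 1 BDNF+Dox library.

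The authors also called the merged BDNF+Dox reads (54723304 kept) over the merged Naive reads (53481523 kept). Folds and q-values of these lists are the authors' own, from the authors' deposited tables, and the merging leaves no spread between replicates. The narrow list held 7882 peaks on chromosomes 1 to 22 and X, of which 80 (1.01%) had a q-value of 0.05 or less and 82.8% a q-value of 1. Of these peaks, 2.92% lay at a gene end and 45.7% deeper inside a coding gene. Their median distance to a listed coding start was 92.5 kb, shorter than in any of the 6 libraries. The merged list is drawn from the same reads as the BDNF+Dox libraries, so its location is no second line of support. Of the narrow peaks, 1444 (18.3%) were met by a peak from 1 or more BDNF+Dox libraries, 46 from 2 or more, 2 from all 3, and 2 from a Naive library.

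Heights in the merged list were small and stepwise. The median peak stood on 13 BDNF+Dox fragments from 3 libraries together, and for 2206 peaks (28%) the Naive background was at the lowest value in the list, 3.23 fragments. All peaks of 1 height over that background carry the same values in the authors' deposited table: 40 peaks of 16 fragments share a fold of 3.93 and q = 0.0593, and 15 of 17 fragments share a fold of 4.17 and q = 0.0131. Across the q threshold of 0.05, such peaks therefore differ by 1 fragment.

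**Figure D4:**
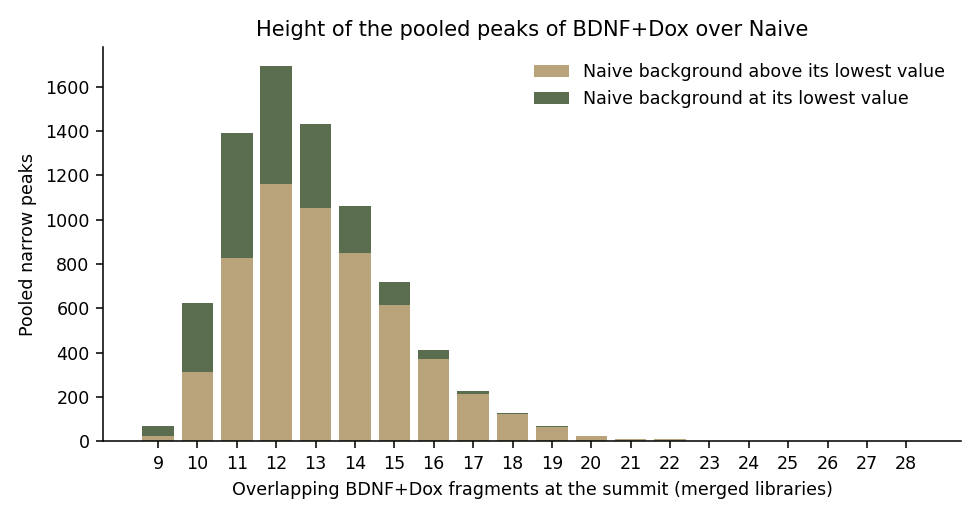
Number of merged narrow peaks (vertical axis) by the number of overlapping BDNF+Dox fragments at the summit, split by whether the Naive background is at the lowest value of the list, 3.23. The mode is near 12 to 13 fragments and few peaks exceed 20; the 4 peaks above 28 fragments are not drawn.

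Among peaks at gene ends, the strongest by q were at the cancer-testis gene GAGE2A (19 fragments, q = 0.000484), the centrosome gene CEP112 (17 fragments, q = 0.0131), the urotensin receptor gene UTS2R (17 fragments, q = 0.0144) and the biliverdin reductase gene BLVRA (18 fragments, q = 0.0472). The CEP112 peak lay 0.591 kb upstream of the start and the BLVRA peak 1.16 kb downstream of it. Next came BTG2, an antiproliferative gene of the immediate early response, NGFR, the low-affinity neurotrophin receptor, and N4BP2, each with 16 fragments and q = 0.0593. USF1, PRELP and LDHA followed with 15 fragments and q = 0.214. Of these 10 genes, UTS2R and BLVRA shared their peak with 1 BDNF+Dox library and the others with none. BTG2 and NGFR had 0 peaks in all 6 single libraries. GAGE2A, like FAM72D below, has near-identical gene copies among which reads can be split, so both are uncertain.

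Inside genes, the strongest peak lay in MECOM, a transcription factor gene on chromosome 3, with 20 fragments and q = 0.000452. CDC25A, the phosphatase that drives entry into S phase, and C1QTNF3 had 19 fragments and q = 0.000484, FAM72D had 21 and q = 0.000507, and SND1 had 22 and q = 0.0012. SPATS2, MACROD2, BAIAP2L1, AUTS2 and YY1AP1 followed with 18 to 20 fragments and q up to 0.00534. The peaks of CDC25A and SPATS2 were shared with 1 BDNF+Dox library, the other 8 with none. MACROD2, a gene of 2058 kb, had 7, 6 and 7 peaks in BDNF+Dox and 9, 4 and 3 in Naive libraries, and its groups overlapped.

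The broad list held 20165 regions, 3 of which (0.0149%) had a q-value of 0.05 or less. All 7882 narrow peaks lay inside a broad region, and 39% of broad regions held a narrow peak. Regions were short, with a median of 302 bp, and 23 exceeded 1 kb. The longest in coding genes were in CDK6, the cell cycle kinase (1360 bp, fold 2.27), the zinc finger gene ZNF782 (1304 bp), the synaptic adhesion gene SDK1 (1188 bp), the vasopressin receptor gene AVPR1B (1183 bp) and FERMT2 (1124 bp), all at q = 1 in the authors' deposited table. The next were in FAM163A, LOC107986837, PRKAR1B, PRKCE and EML4, at 1064 to 1105 bp, and that in PRKCE held 2 narrow peaks. Among coding genes ranked by q, GAGE2A, CDC25A, C1QTNF3, OAT and CEP112 led with q from 0.0644 to 0.214. BAIAP2L1, ASTN2, RAP1GDS1, SPATS2 and FAM72D followed. The 3 regions at a q-value of 0.05 or less lay outside this ranking of coding genes. OAT, ornithine aminotransferase, was the gene among these 10 whose region met peaks of 2 BDNF+Dox libraries, replicates 1 and 3 (folds 3.04 and 3.87), and of no Naive library.

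Mitochondrial DNA carries no histones, yet it held the smallest q-values of the merged lists. On it, 11 narrow peaks of the authors' deposited table had folds of 1.74 to 3.16 and q from 5.54e-30 to 1.67e-08, and they covered 12603 bp. In the 6 lists over Input, 0 peaks lay on mitochondrial DNA. The part of mitochondrial reads in other results was not tested.

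The genes with the most merged narrow peaks were compared with their numbers in single libraries. ALK, a receptor kinase and neuroblastoma driver on chromosome 2, held 14 merged peaks, but 3, 2 and 1 peaks in BDNF+Dox and 2, 0 and 2 in Naive libraries. PRKCA, a classical protein kinase C on chromosome 17, held 12, with 1, 0 and 6 against 0, 2 and 1. PRKCE, another protein kinase C, held 10, with 0, 1 and 3 against 1, 2 and 0. AUTS2 held 11, with 3, 2 and 4 against 5, 0 and 2, and the kinesin gene KIF26B held 10, with 5, 1 and 3 against 0, 3 and 3. CNTNAP2, an axonal adhesion gene, held 11, with 16, 8 and 8 against 25, 10 and 9, so that its group mean was lower in BDNF+Dox. SUGCT, SDK1, EXOC4 and GPC5 held 9 each. In all 10 genes the library numbers of the groups overlapped. The merged peaks of SUGCT included the one over the LOC105375242 window shown above, which stood at a fold of 3.59 and q = 0.0726 and met no peak of a BDNF+Dox library.

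Gene lists were described by density, since a long gene catches more peaks. Over all 19974 coding genes, 13.1% held a merged narrow peak, 23.7% a broad region and 0.19% a narrow peak at a q-value of 0.05 or less, with 2.93 narrow peaks per Mb and a median of 0 per gene. Library densities over all genes, per Mb and per 10000 peaks of a library, were 3.17, 3.26 and 3.44 in BDNF+Dox and 2.82, 2.92 and 2.96 in Naive libraries, which restates the genic shift. The density was higher in every BDNF+Dox than in any Naive library in 4 of 17 lists (23.5%), and in 0 lists was it lower in every one. All coding genes separated the groups in the same direction, so these 4 lists carry that shift too. Whether they went beyond it was not tested.

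The axon and cytoskeleton list had densities of 4.27, 5.79 and 3.9 in BDNF+Dox and 2.28, 3.16 and 2.35 in Naive libraries, from 6 to 15 peaks a library. Narrow merged peaks lay in 8 of its 23 genes (median of 0 per gene), with DPYSL3, a collapsin response mediator, and GAP43, the growth cone protein, each at fold 3.93 and q = 0.0593, and ANK2 at q = 0.564. The axon guidance list had 4.12, 4.54 and 5.44 against 3.61, 3.25 and 3.72, and 16 of 36 genes held a narrow peak. Of these, the ligand SLIT3 had q = 0.0593, its receptor family member ROBO2 q = 0.131 and SEMA6D q = 0.164. The presynaptic release list had 4.1, 4.4 and 6.23 against 3.97, 3.47 and 3.39, and 12 of 27 genes held a narrow peak, including DNAJC6, which uncoats synaptic vesicles (q = 0.0593), and the vesicle calcium sensor SYT1 (q = 0.214). The neuroblastoma driver list had 3.25, 3.59 and 3.61 against 3.24, 2.48 and 1.84. Of its 21 genes 8 held a narrow peak, ATRX at q = 0.214, ALK at 0.25 and NBAS at 0.429. Before scaling to library size, the peak numbers of these last 3 lists overlapped between the groups. They were 61, 43 and 47 against 60, 26 and 40 for axon guidance, and 35, 24 and 31 against 38, 16 and 21 for presynaptic release. For neuroblastoma drivers they were 17, 12 and 11 against 19, 7 and 7. Within these lists ERC2 was the gene whose library numbers separated the groups.

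**Figure D5:**
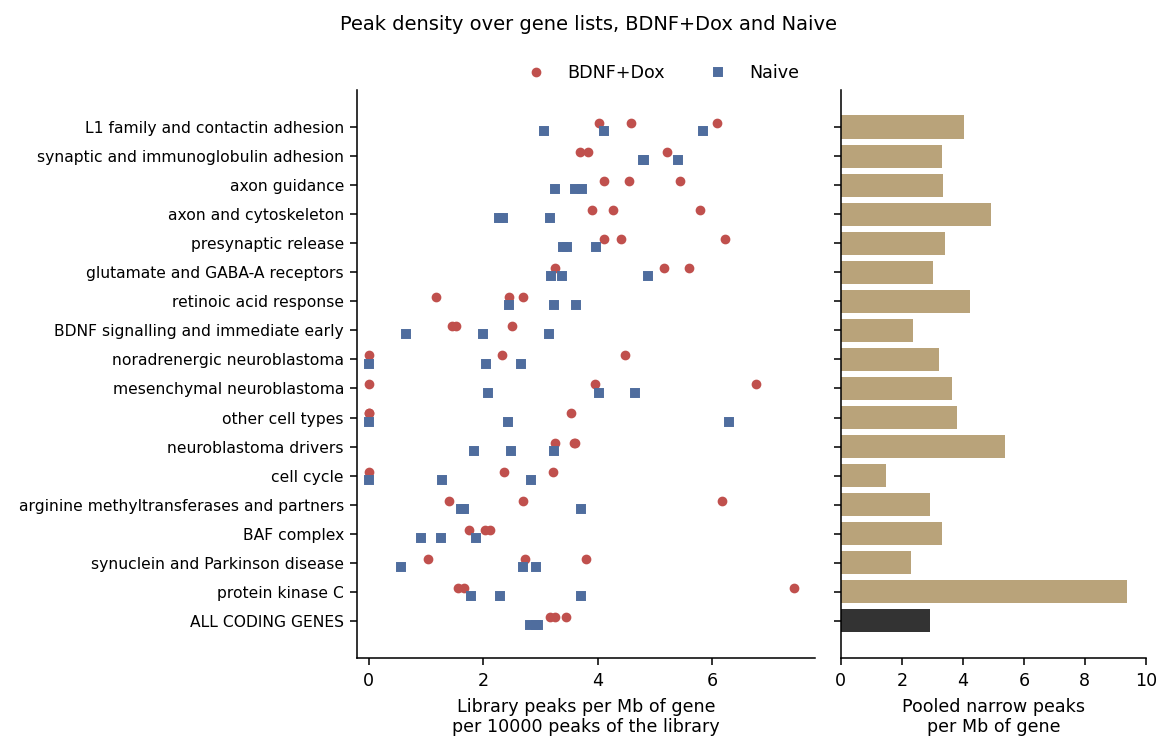
Left, library peaks per Mb of gene per 10000 peaks for 17 gene lists and all coding genes, with 3 BDNF+Dox libraries as circles and 3 Naive libraries as squares; right, merged narrow peaks per Mb. The groups separate in axon guidance, axon and cytoskeleton, presynaptic release, neuroblastoma drivers and all genes, and the protein kinase C bar is highest at 9.37.

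Other neuronal lists overlapped. In the L1 family and contactin list densities were 6.09, 4.58 and 4.02 in BDNF+Dox and 5.84, 4.12 and 3.06 in Naive libraries, and 9 of 15 genes held a narrow peak, NRCAM with q = 0.0221, CNTNAP2 with 0.214 and CNTN4 with 0.564. NRCAM itself had 6, 2 and 3 peaks in BDNF+Dox and 2, 0 and 1 in Naive libraries, while L1CAM had 0 in all. In the synaptic and immunoglobulin adhesion list the mean density was lower in BDNF+Dox, at 4.25 against 5. Its NCAM2 had 4, 3 and 4 peaks against 0, 1 and 2, and its IL1RAPL1 had 6, 4 and 3 against 7, 7 and 7, so that members went opposite ways. Among glutamate and GABA-A receptor genes 16 of 28 held a narrow peak, GRM7 with q = 0.076, GRIK2 with 0.125 and GABRA5 with 0.564. GRIA4 had 1, 1 and 1 library peaks in BDNF+Dox and 2, 2 and 2 in Naive libraries.

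Lists of genes that answer the treatments held narrow peaks at about the share of all coding genes, 13.1%. Their densities lay on either side of the 2.93 narrow peaks per Mb of all coding genes. The retinoic acid response list had 4.24 per Mb, from 10 narrow peaks in 3 genes, and the BDNF list 2.36. These differences were not tested. Of 24 retinoic acid response genes 3 (12.5%) held a narrow peak, among them RARB and ALDH1A2 with q = 1, and library densities averaged 2.11 in BDNF+Dox and 3.1 in Naive cells with overlap. Of 34 genes of BDNF signalling and the immediate early response 5 (14.7%) held one, BTG2 and NGFR as above and SORCS3 with q = 1. In the protein kinase C list 5 of 12 genes held 26 narrow peaks, 9.37 per Mb, yet library densities were 1.67, 1.57 and 7.43 against 1.78, 3.7 and 2.3, so that BDNF+Dox replicate 3 alone stood above the Naive libraries. The smallest q-values of this list were 0.0855 for both PRKCA and PRKCE, followed by PRKD3 with q = 0.443.

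Genes of the enzymes and complexes named in the series' title stand beside 13.1% and 2.93 narrow peaks per Mb over all coding genes. Shares depend on gene length. The median length was 28.8 kb for arginine methyltransferases and partners, 52 kb for BAF genes and 24.2 kb for all coding genes. PRMT5 had 0 peaks in all 6 libraries and 0 in both merged lists. Of 18 arginine methyltransferases and partners 3 held a narrow peak (16.7%, 2.92 per Mb), PRMT9 (q = 0.79), PRMT2 and JMJD6 (both q = 1). Of 30 BAF genes 7 did (23.3%, 3.3 per Mb), among them SS18 (q = 0.666), ARID1B and PBRM1 (both q = 1), and PBRM1 had 1, 1 and 0 library peaks against 0, 0 and 0. Of 24 genes of the synuclein and Parkinson disease list 5 held a narrow peak (20.8%), including DNAJC6 and DNAJC13. Its density was 2.29 per Mb, below that of all coding genes, and its median gene length was 46.9 kb.

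Marker lists of cell states are short, so their shares rest on few genes, and they stand beside the 13.1% and 2.93 narrow peaks per Mb of all coding genes. Of 20 noradrenergic neuroblastoma markers 2 (10%) held a narrow peak, at 3.23 per Mb, KLF7 (q = 0.564) and DDC (q = 1). Of 22 mesenchymal markers 5 (22.7%) did, at 3.66 per Mb, among them RUNX1 (q = 0.564), TBX18 and YAP1 (both q = 1). Of 11 markers of other cell types 2 (18.2%) did, at 3.82 per Mb, PTPRC (q = 0.79) and AQP4 (q = 1), with 0 to 4 library peaks over the whole list. Of 36 cell cycle genes CDC25A and CDK6 did, at 1.49 peaks per Mb, the lowest of the 17 lists.

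Promoter windows run from 250 bases before to 50 after a start and were taken from all chromosomes but 8 and Y. Of 34961 windows 16 (0.0458%) met a merged narrow peak and 51 (0.146%) a broad region. Windows met a library peak in 16, 14 and 4 cases in BDNF+Dox and 9, 16 and 8 in Naive libraries, and none met peaks of 2 libraries of a group. The 16 windows belonged to 5 coding genes, CCR2, ART3, THBS4, CSRP1 and SCYGR6, and 11 long noncoding RNA genes. All 16 were below the median GC content of all windows, 58.7%, with a median of 41.7%, and so were all 34 windows met by BDNF+Dox libraries and all 33 met by Naive libraries. The low GC content is therefore common to both groups and no difference between them. AGGTCA, the core site of retinoic acid receptors, searched on both strands, was in 2 of the 16 windows (12.5%), of which ART3 is shown above, and in 13.8% of all windows. It was in 10 of the 34 windows met by BDNF+Dox libraries (29.4%) and in 5 of the 33 met by Naive libraries (15.2%), and this difference was not tested. E-boxes (CANNTG) were in 68.7% of all windows.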

How the data were processed

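H4R3me2s ChIP-seq was analysed in 3 BDNF+Dox and 3 Naive libraries and 1 Input library, grouped by the labels. Per the submitters' processing notes, cutadapt 1.1, Trimmomatic 0.32, Bowtie (version not stated), MACS2 2.2.7.1 and GRCh38 were used. Narrow peaks were called in each library over the Input at a p of 0.01 per the file headers, and the merged BDNF+Dox over the merged Naive reads as narrow and broad peaks (broad cutoff 0.01), with 1 read kept per position and the larger data set scaled down. The deposited values are the pileup signal at the summit, −log10 p-values and q-values, and fold enrichment, a ratio over local background. The headers state that q-values were not calculated, yet the column holds values, used as given. Merged lists hold gains in BDNF+Dox only.

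Fragment heights were the deposited signal divided by the header's scaling, and the background was the value that gives the deposited fold with 1 added to both terms. Gene spans and starts were from RefSeq (GRCh38.p14); the span table has no exons and the start table was used without chromosome 8. Contigs and mitochondrial DNA were left out except where named. Peaks were counted in a coding gene or within 2 kb of it. Distances, overlaps (1 bp or more), counts and exact permutation tests over 20 assignments were computed with Python 3.11.15, numpy 2.4.6, pandas 2.3.3 and scipy 1.17.1, checked on simulated data. Adjustment was Benjamini-Hochberg over 5 measures.

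The members, gene lists and rules were chosen with earlier results of these data known. Named genes were the 10 strongest by q at gene ends and the 10 inside genes in the narrow list, the 10 longest and the 10 strongest by q in the broad list, the 10 with most narrow peaks, the regions and the 5 genes per direction that separate the libraries, up to 3 members per list by q, and L1CAM, NRCAM and PRMT5, with some results of these rules not reported here. NCAM2, IL1RAPL1, GRIA4 and NMNAT2, and the genes of promoter windows, were named after their values were seen. Peak lists hold no reads per region outside peaks, so a library without a peak has no value there. Replicate numbers are shared between the groups, but the labels do not say that they pair the libraries. Correlations of deviations in 1 Mb bins for same-numbered libraries were -0.0284, 0.0163 and 0.00667. For libraries of unlike number they ran from -0.03 to 0.0286. Since even replicates of a group shared few peaks, these values cannot decide whether the libraries were paired. Alternatives are in the closing section.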

Additional observations from a re-analysis of the deposited data

How the results depend on the processing

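The genic share and the gene-end share kept their direction under every alternative run (p cutoffs, equal peak numbers, windows of 1 and 5 kb, each library left out, and for the genic share equal chromosome weights and no chromosome X). The genic difference ranged from 3.97 to 5.57 points when 1 library was left out. The gene-end difference, 0.316 points, was 0.699 at a −log10 p of 5 or more and 0.768 with the 5 kb window. With the replicate number as a block (numbers only shared), exact p was 0.25 for both, the smallest that 3 pairs allow, and the differences stayed 4.82 and 0.316.

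Log10 peak number and covered length had no stable sign: they were 0.0052 and 0.0022 higher in BDNF+Dox at a −log10 p of 3 or more, and leaving out 1 library gave -0.0985 to 0.0603 and -0.111 to 0.0457, against -0.0242 and -0.0259 with all. At a q-value of 0.001 or less the mean number of peaks was 0.667 higher in BDNF+Dox.

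Regions found in all BDNF+Dox or all Naive libraries alone numbered 4 and 4 with peaks within 500 bp merged, 1 and 1 with equal peak numbers (without the NRCAM region), 1 and 1 at a −log10 p of 3, and 0 and 0 at 5. With overlap by 50% of the shorter peak the Naive count was 1. Genes with fewer peaks numbered 25 with equal numbers and 24 at a −log10 p of 3. Leaving out 1 library relaxes these rules by construction: regions then numbered 2 to 59 for BDNF+Dox and 2 to 82 for Naive libraries, and genes with more peaks 93 to 237 and with fewer 66 to 216.

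At a −log10 p of 5 the narrow list held 934 peaks and the broad list 18. At a q-value of 0.1 the counts were 157 and 7, and at 0.01 the narrow count was 27. The share of narrow peaks met by a BDNF+Dox library was 17.4% with the stricter overlap, 35% among peaks at a q-value of 0.05, and 14.9% with equal numbers. For broad regions it was 11.1%, 66.7% and 9.72%. For Naive libraries it was 0% of such narrow peaks, and 0.0545%, 0% and 0.0595% of broad regions.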
